A study of Mus musculus with 8 samples.

Results

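The 9 genes described here, *Dcstamp*, *Ocstamp*, *Tnfrsf11a*, *Oscar*, *Nfatc1*, *Acp5*, *Ctsk*, *Atp6v0d2* and *Itgb3*, serve macrophage fusion and the osteoclast, and were chosen by name out of 18183 genes on the array. Every probe set annotated to 1 of them alone was used, which gave 17 of 45008 probe sets tested. The probe set with the highest mean over the 8 arrays stands for its gene, and the others serve as a check. RNA of bone marrow-derived macrophages (BMDM) was measured on 8 Affymetrix mouse arrays, in 4 groups of 2. The WT(LPS) group held wild-type cells given LPS, a bacterial cell wall component, at 100 ng/ml for 24 h, and WT(LPS + IL-10) the same with the anti-inflammatory cytokine IL-10 at 20 ng/ml, added 5 min before LPS. The groups miR-155-/-(LPS) and miR-155-/-(LPS + IL-10) held miR-155 knockout cells under the same treatments. The labels give the wild-type strain as C57Bl/6, and the methods give C57BL6/J for both genotypes. All cells were femoral marrow stored in liquid nitrogen, thawed and grown for 7 days in 15% L929 conditioned medium, and no group was left without LPS. The general methods for marrow cultures name young adult female littermates, while the labels of these arrays give both WT donors as female and both miR-155-/- donors as male. Genotype and sex therefore cannot be told apart. The labels count 2 animals a genotype and the methods block on the mouse donor. That arrays of a genotype with the same replicate number come from 1 donor is a reading of those numbers, and every value within a donor rests on it.

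Osteoclasts are the cells that resorb bone, and they arise from the same marrow precursors as macrophages. M-CSF keeps these precursors alive, and RANKL binding to RANK (*Tnfrsf11a*) drives them, with costimulation through receptors such as OSCAR, to switch on NFATc1. This transcription factor turns on the proteins that fuse the cells (DC-STAMP, OC-STAMP and the V-ATPase subunit d2), attach them to bone (the integrin beta 3 chain) and digest it (TRAP and cathepsin K). The same fusion machinery serves multinucleated giant cells, and LPS is known to act on this pathway in ways that depend on when it is given.

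The RNA deleted in the knockout is miR-155, and its mature guide strand is shown to say what the miR-155-/- groups lack. It lies at chr16:84714143-84714165 on the plus strand of GRCm38.p6 in RefSeq, with its seed, bases 2 to 8, in capitals.
mmu-miR-155-5p: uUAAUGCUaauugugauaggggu
The 1 probe set of its host transcript, *Mir155hg*, read 2.73 and 4.02 on the log2 scale in WT cells with LPS, and 2.31 and 2.01 after IL-10 was added. In miR-155-/- cells it read 2.14 and 2.19 with LPS and 1.70 and 2.00 with LPS + IL-10. All these values but 2 lie within the range of Y-linked probe sets on the arrays of female donors, 1.36 to 2.62, and whether this probe set lies inside the deleted part is not known here, so it checks the labels only weakly.

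Values are log2 signals normalised by the authors with RMA, and 1 unit is a doubling. Comparisons were fitted with limma over all probe sets with the donor as a random block, and a gene was called at an adjusted p under 0.05. A second rule, that of the study's methods, takes genes whose log2 fold change exceeds 1 in size with an unadjusted p below 0.05, and a gene past it is named here as selected. With 2 donors a genotype, p-values rest on the spread within groups of these donors' cultures. That spread was pooled over the 4 groups and drawn by limma towards that of all probe sets. The IL-10 effects of a gene therefore have the same SE (standard error) in both genotypes, however far the donors of each differ. The 10 macrophage markers had medians between 12.5 and 12.7 on every array, but 2 of them were called lower in miR-155-/-(LPS) and higher with IL-10 in miR-155-/- cells. These were *Mrc1*, at −2.71 and 2.68 on the log2 scale (adjusted p = 0.0101 and 0.00441), and *Cd163*, at −1.66 and 1.69 (adjusted p = 0.0491 and 0.0215), and their part in the differences below was not tested. *Calcr*, the calcitonin receptor of mature osteoclasts, lay between 1.30 and 2.10, no higher than the Y-linked probe sets, so this marker of mature osteoclasts was not above background. It was chosen for this check after its values were seen. Markers of fibroblasts and stromal cells stood apart in WT donor 1, with 11 of 12 highest there and a median of 7.44, against 3.74, 2.92 and 4.70 in WT donor 2 and miR-155-/- donors 1 and 2. In cultures measured as a whole, fewer cells of a type and less RNA per cell cannot be told apart.

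With LPS alone, the acid phosphatase *Acp5* was lower in miR-155-/- than in WT cells, and with IL-10 the receptor *Tnfrsf11a* was lower than without it in miR-155-/- cells. These were the 2 calls among the 9 genes, 1 in each comparison, where 1.94% and 3.5% of all genes were called. The largest differences were those of *Dcstamp*, which was lower with IL-10 in 4 of 4 donors, and of *Ctsk* and *Atp6v0d2*, which were lower in both miR-155-/- groups. These 3 genes were selected but not called on their brightest probe sets. No difference of *Ocstamp*, *Nfatc1* or *Itgb3* was called or selected. The share of all genes lower with IL-10 in 4 of 4 donors was not counted.

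**Figure D1:**
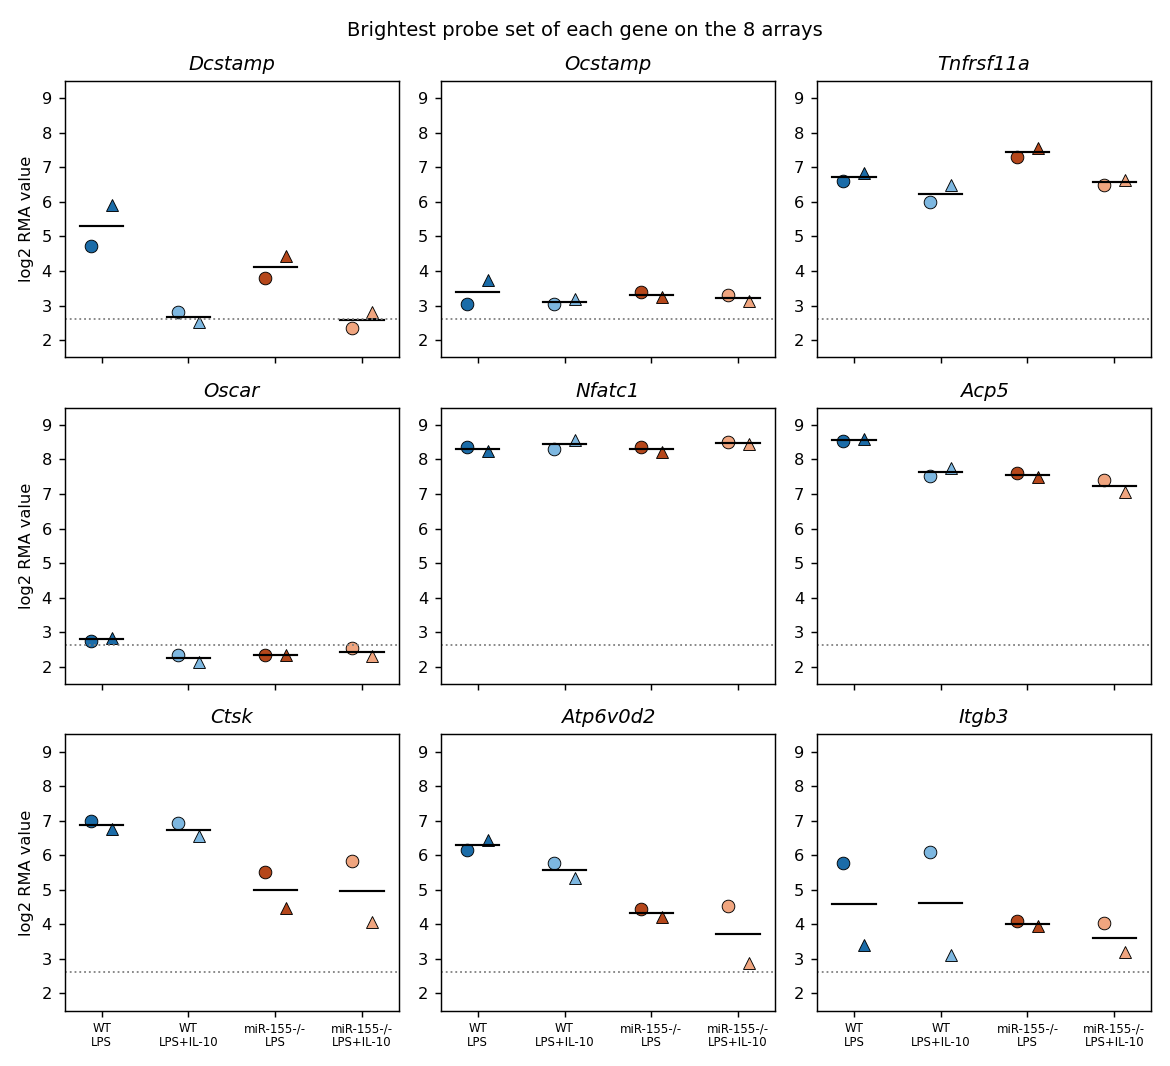
Log2 RMA value (vertical axis) of the brightest probe set of each gene in the 4 groups, with circles for replicate 1, triangles for replicate 2, bars for the mean of 2 arrays and a dotted line at 2.62, the highest value of the Y-linked probe sets on arrays of female donors. *Dcstamp* is lower in both LPS + IL-10 groups, *Ctsk* and *Atp6v0d2* in both miR-155-/- groups, and *Itgb3* is high in WT replicate 1 of both treatments.

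Promoter windows for GRCm38.p6, from 250 bases before to 50 after each start, were taken from RefSeq's table for 4 of the 9 genes. The search for the 9 genes left out windows on 1 chromosome, so whether the table holds a window of a member there is not known here. On the other chromosomes it found no window of this length for further members. The shares over all windows left out no chromosome. *Ctsk*, *Acp5* and *Tnfrsf11a* are shown because they carry the called or selected differences, and of the 3 *Acp5* windows the one with the most matches was chosen. Capitals mark the core of NFAT sites (GGAAA, or TTTCC on the other strand).
*Ctsk* at chr3:95498960-95499259, plus strand: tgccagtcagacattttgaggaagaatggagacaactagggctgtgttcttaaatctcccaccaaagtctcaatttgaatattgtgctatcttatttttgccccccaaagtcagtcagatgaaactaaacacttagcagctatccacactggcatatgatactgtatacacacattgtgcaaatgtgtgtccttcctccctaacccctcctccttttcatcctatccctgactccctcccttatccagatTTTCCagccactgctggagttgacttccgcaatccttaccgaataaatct
*Acp5* at chr9:22130549-22130848, minus strand, the third of its 3 starts: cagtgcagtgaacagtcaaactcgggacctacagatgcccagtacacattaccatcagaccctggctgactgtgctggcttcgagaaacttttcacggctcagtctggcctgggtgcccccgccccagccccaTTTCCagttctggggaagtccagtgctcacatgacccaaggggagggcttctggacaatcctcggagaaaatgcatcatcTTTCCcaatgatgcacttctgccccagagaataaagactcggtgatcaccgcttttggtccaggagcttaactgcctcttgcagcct
*Tnfrsf11a* at chr1:105780473-105780772, plus strand: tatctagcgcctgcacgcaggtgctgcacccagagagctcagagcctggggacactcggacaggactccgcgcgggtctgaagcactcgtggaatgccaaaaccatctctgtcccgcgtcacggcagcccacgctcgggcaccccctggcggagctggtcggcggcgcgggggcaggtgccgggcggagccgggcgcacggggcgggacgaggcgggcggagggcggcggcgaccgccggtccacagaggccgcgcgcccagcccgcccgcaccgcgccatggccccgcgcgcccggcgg
The core GGAAA occurred 1 time in the *Ctsk* window and 2 times in this *Acp5* window, and it had no match in the *Tnfrsf11a* window, while 61.3% of all 32851 windows held it on either strand. The E-box CATGTG of MITF and TFE factors, which 14.2% of windows held, occurred 1 time in this *Acp5* window and in none of the other 2. The first and second *Acp5* windows, not shown, held the core 1 time each and the E-box in neither. The AP-1 site TGANTCA (7.81% of windows) and the PU.1 site GAGGAAGT (3.2%) were in none of the 3. The *Oscar* window, not shown, held the core 4 times and the E-box 1 time. Each motif was searched on both strands, and GAGGAAGT does not contain GGAAA. These matches describe letters in a window and do not locate a bound site.

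*Dcstamp* encodes DC-STAMP, the membrane protein that macrophages and osteoclast precursors need to fuse. WT arrays of *Dcstamp* read 4.72 and 5.91 with LPS and 2.81 and 2.54 once IL-10 was added. The miR-155-/- arrays read 3.80 and 4.43 with LPS, against 2.36 and 2.82 with both. The LPS arrays were above the LPS + IL-10 arrays in each genotype, without overlap, and 2 of the 4 LPS + IL-10 values lay within the range of Y-linked probe sets. The log2 fold change with IL-10 was −2.64 (SE 0.36) in WT cells, with a limma adjusted p of 0.0895. In miR-155-/- cells it was −1.52 (SE 0.36, adjusted p = 0.086). Within donors the difference was −1.91 and −3.38 in WT and −1.44 and −1.61 in miR-155-/- cells. The gene was selected in both genotypes and called in neither. The difference between the genotypes in this IL-10 effect was 1.12 (95% interval −0.09 to 2.33), with an adjusted p of 0.505. Because the LPS + IL-10 values lay at or near background, the differences that use them have no exact size.

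Under LPS alone *Dcstamp* was also selected in the genotype comparison, at −1.20 (SE 0.42, adjusted p = 0.259), and the 2 WT arrays stood above both miR-155-/- arrays. Under LPS + IL-10 the genotype difference was −0.09 (95% interval −1.07 to 0.90), and their arrays overlapped. Both differences moved with the WT(LPS) arrays. Without WT(LPS) replicate 1 the genotype difference under LPS was −1.83, without replicate 2 it was −0.58 and no longer selected, and without both arrays of WT donor 1 it was −1.80. The IL-10 difference in WT cells was −3.27, −2.02 and −3.38 in the same fits. Without miR-155-/-(LPS) replicate 1 the genotype difference was −0.95, also not selected. *Ocstamp*, a second fusion protein of the same family, read between 3.03 and 3.75 on all 8 arrays. Its log2 fold changes lay between −0.29 and 0.11 in the 4 comparisons of groups, and its groups overlapped in each.

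*Tnfrsf11a* encodes RANK, the receptor for RANKL. In WT cultures it read 6.60 and 6.84 with LPS alone, and 5.99 and 6.48 with IL-10. In miR-155-/- cultures the values were 7.31 and 7.56 with LPS alone, and 6.49 and 6.64 with IL-10. Both miR-155-/-(LPS) arrays were above the other 6. With IL-10 the gene fell in miR-155-/- cells by 0.87 on the log2 scale (SE 0.17, adjusted p = 0.0453), a 1.83-fold lower signal. Without each array in turn the adjusted p ran from 0.0456 to 0.241, and the call held in 2 of 8 such fits. In WT cells the difference was −0.49 (SE 0.17, adjusted p = 0.466), and the values were lower with IL-10 in 4 of 4 donors. The IL-10 effect in miR-155-/- cells minus that in WT cells was −0.38 (adjusted p = 0.6). Under LPS the miR-155-/- level was 0.72 above WT (SE 0.19, adjusted p = 0.149), and under LPS + IL-10 0.33 above (adjusted p = 0.662). The second, dimmer probe set gave −0.49 for IL-10 in WT and −0.41 in miR-155-/- cells, also lower in 4 of 4 donors, but 0.04 for the genotype under LPS, so the higher level in miR-155-/-(LPS) rests on 1 probe set.

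*Oscar*, a costimulatory receptor, read 2.75 and 2.84 on the WT(LPS) arrays and between 2.14 and 2.54 on the other 6 arrays. Those 6 values lie within the range of Y-linked probe sets, so they measure little above background. The log2 fold change with IL-10 in WT cells was −0.55 (SE 0.13, adjusted p = 0.264), and the second probe set, between 2.21 and 2.57 on all arrays, gave −0.02. *Nfatc1*, the transcription factor that drives osteoclast genes, read between 8.21 and 8.57 on all 8 arrays. Its log2 fold changes were between −0.01 and 0.18, and none was called. Of its 4 other probe sets, 1 gave 5.98 and 6.10 for WT donors under LPS against 5.47 and 5.46 under LPS + IL-10. That is a difference of −0.57 (limma adjusted p = 0.251). Another, nearly as bright at a mean of 8.14, gave −0.32 (adjusted p = 0.548), and the remaining ones gave 0.03 and −0.53. For the genotype under LPS the 4 gave, in this order, −0.36, −0.39, −0.27 and −0.24, and none was called. The probe sets of this gene therefore do not give 1 value.

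**Figure D2:**
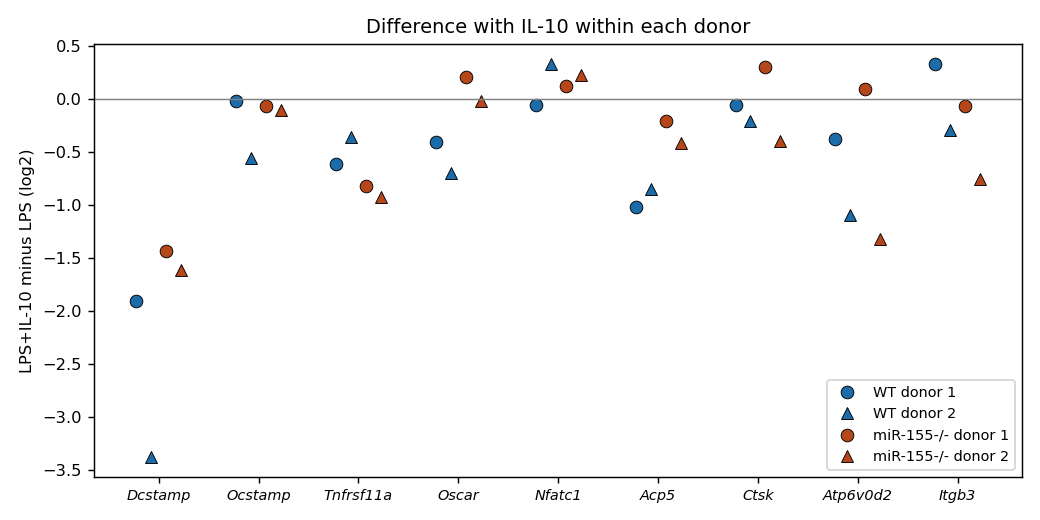
Difference of LPS + IL-10 minus LPS on the log2 scale (vertical axis) for each gene within each of 4 donors, in blue for WT and in orange for miR-155-/-, with circles for donor 1 and triangles for donor 2. *Dcstamp*, *Ocstamp*, *Tnfrsf11a* and *Acp5* lie below 0 in 4 of 4 donors. *Ocstamp* does so by little, at −0.02 and −0.56 in WT and −0.07 and −0.11 in miR-155-/- donors. The share of all genes below 0 in 4 of 4 donors was not counted.

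*Acp5* encodes tartrate-resistant acid phosphatase (TRAP), the enzyme used to stain osteoclasts, which macrophages also make. The WT(LPS) arrays read 8.54 and 8.61, and their IL-10 counterparts 7.52 and 7.76. For miR-155-/- donors the values were 7.61 and 7.49 without IL-10, and 7.41 and 7.07 with it. Only the 2 WT(LPS) arrays were above 8. Under LPS the *Acp5* level of miR-155-/- cells was lower, with a log2 fold change of −1.02 (SE 0.16, adjusted p = 0.0364), a 2.03-fold lower signal. With any 1 array left out the difference stayed between −1.03 and −1.01, but the adjusted p ran from 0.051 to 0.212 and the call was lost each time. Without both arrays of WT donor 1 the adjusted p was 0.118. With IL-10 the difference was −0.93 in WT cells (SE 0.14, adjusted p = 0.112) and −0.31 in miR-155-/- cells (SE 0.14, adjusted p = 0.314). The difference between these effects was 0.62 (SE 0.20, adjusted p = 0.401), so a different IL-10 effect by genotype was not shown. Under LPS + IL-10 the genotype difference was −0.40 (adjusted p = 0.534).

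*Ctsk* encodes cathepsin K, the protease that cuts bone collagen and is also made by fibroblasts. WT donors 1 and 2 gave 7.00 and 6.75 with LPS, then 6.94 and 6.54 with IL-10 as well. miR-155-/- donors 1 and 2 gave 5.53 and 4.47 with LPS, then 5.83 and 4.07 with IL-10 as well. All 4 WT arrays were above all 4 miR-155-/- arrays, and the miR-155-/- donors differed from each other by over 1 log2 unit. The genotype difference was −1.88 under LPS (SE 0.52, adjusted p = 0.168) and −1.79 under LPS + IL-10 (SE 0.52, adjusted p = 0.383), so *Ctsk* was selected in both and called in neither. The difference with IL-10 was −0.13 in WT (95% interval −1.21 to 0.94) and −0.05 in miR-155-/- cells (95% interval −1.12 to 1.03). Without both arrays of WT donor 1 the genotype difference under LPS was −1.75 (adjusted p = 0.397). Under LPS + IL-10 it was −2.51 without miR-155-/- replicate 1 of that treatment and −1.06 without replicate 2.

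*Atp6v0d2* encodes the d2 subunit of the proton pump that acidifies the resorption space, and it also takes part in fusion. On its brightest probe set the WT donors had 6.14 and 6.45 under LPS, and 5.77 and 5.35 under LPS + IL-10. The miR-155-/- donors had 4.43 and 4.21 under LPS, and 4.53 and 2.89 under LPS + IL-10. The 4 WT arrays were again above the 4 miR-155-/- arrays. The genotype difference was −1.98 under LPS (SE 0.48, adjusted p = 0.12) and −1.85 under LPS + IL-10 (SE 0.48, adjusted p = 0.317), so the gene was selected in both. Under LPS + IL-10 it was −2.64 without miR-155-/- replicate 1 of that treatment and −1.07 without replicate 2. The difference with IL-10 was −0.74 in WT and −0.61 in miR-155-/- cells (adjusted p = 0.616 and 0.527). The second probe set read 4.69 and 5.38, 3.92 and 4.03, 2.60 and 2.88, and 3.72 and 3.07 in the same order of groups. Of its miR-155-/-(LPS) values, 2.60 lies within the range of Y-linked probe sets and 2.88 just above it. The differences on this probe set that use these arrays therefore have no exact size. There the genotype difference under LPS was −2.29 (SE 0.30, adjusted p = 0.0214) and so was called, and it kept the call in 4 of 8 fits that left out 1 array, with adjusted p from 0.0303 to 0.166. Under LPS + IL-10 this probe set gave −0.58 (adjusted p = 0.629), against −1.85 on the brighter one. The IL-10 difference in miR-155-/- cells was 0.65 (adjusted p = 0.268) against −0.61. The negative sign rests on miR-155-/-(LPS + IL-10) replicate 2, without which the brighter probe set gave 0.17, and miR-155-/- donor 1 was higher with IL-10 on both probe sets, by 0.09 and 1.11.

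*Itgb3* encodes the beta 3 chain of the vitronectin receptor that holds osteoclasts to bone. WT donor values were 5.78 and 3.39 without IL-10, and 6.11 and 3.10 with IL-10. miR-155-/- donor values were 4.09 and 3.95 without IL-10, and 4.03 and 3.20 with IL-10. The 2 high values are those of WT donor 1, the donor with high stromal markers. The genotype difference under LPS was −0.57 (95% interval −2.82 to 1.69), and without both arrays of WT donor 1 it turned to 0.63 (adjusted p = 0.528). The part of stromal cells in this was not tested. The second probe set read between 2.22 and 2.77 on all arrays, near the background, and did not repeat the high values of this donor.

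**Figure D3:**
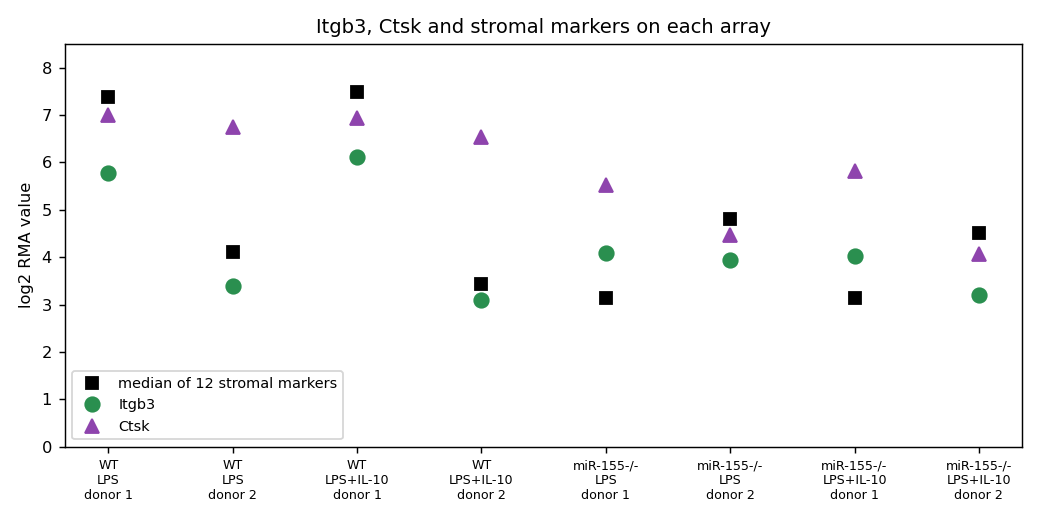
Log2 RMA value (vertical axis) of *Itgb3* (green circles), *Ctsk* (purple triangles) and the median of 12 stromal markers (black squares) on each of the 8 arrays. *Itgb3* and the stromal median are both highest in WT donor 1, while *Ctsk* is high in WT donor 2 as well, at 6.75 and 6.54, where the stromal median is 4.11 and 3.43.

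**Figure D4:**
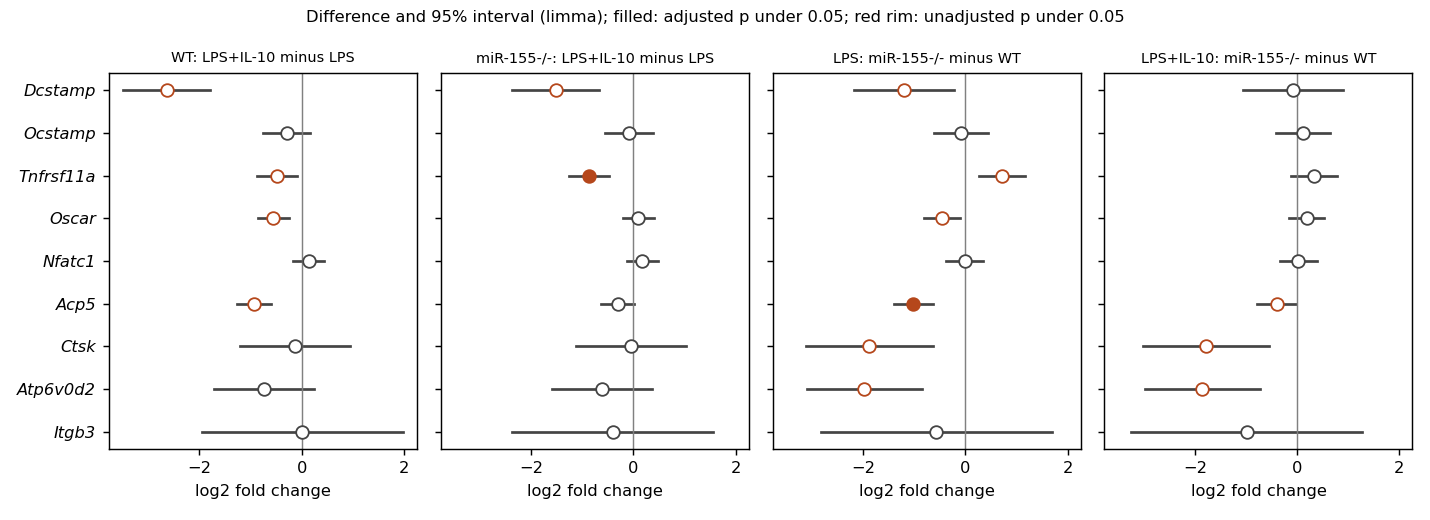
Log2 fold change (horizontal axis) with its 95% interval from limma for the 9 genes in 4 comparisons of groups. The 2 filled points, *Tnfrsf11a* for IL-10 in miR-155-/- cells at −0.87 and *Acp5* for the genotype under LPS at −1.02, are the calls, and a red rim marks an unadjusted p under 0.05.

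The counts over the 9 genes can be set beside those of all 18183 genes. In WT cells IL-10 gave 0 called members, against 0.044% of all genes, and 1 selected member (*Dcstamp*), against 0.962%, and 4 members had an unadjusted limma p under 0.05, against 9.26%. In the genotype comparison under LPS, 1 member was called, against 1.94% of all genes, and 4 were selected (*Dcstamp*, *Atp6v0d2*, *Acp5* and *Ctsk*, all lower in miR-155-/-), against 3.25%, with 6 at an unadjusted p under 0.05, against 15.3%. In miR-155-/- cells IL-10 gave 1 called member, against 3.5%, and 1 selected (*Dcstamp*), against 3.33%, with 2 at an unadjusted p under 0.05, against 19.7%. Under LPS + IL-10 the genotype comparison gave 0 called members, against 0.0935%, and 2 selected (*Atp6v0d2* and *Ctsk*), against 1.61%, with 3 at an unadjusted p under 0.05, against 9.4%. For the difference between the genotypes in the IL-10 effect, 0 members were called, against 0.044%, and 0 selected, against 2.09%, with 2 (*Acp5* and *Oscar*) at an unadjusted p under 0.05, against 10.6%. The median log2 fold change of the 9 genes was −0.49 for IL-10 in WT cells, −0.31 for IL-10 in miR-155-/- cells, −0.57 for the genotype under LPS and −0.09 for it under LPS + IL-10. Over all genes these medians were −0.003, −0.003, 0.028 and 0.025. The WT(LPS) arrays enter both the IL-10 comparison in WT and the genotype comparison under LPS, so the lower values in both are not separate evidence. Likewise the miR-155-/-(LPS) arrays enter both the genotype comparison under LPS and the IL-10 comparison in miR-155-/- cells. Opposite calls in those comparisons, as for *Mrc1* and *Cd163* above and *Trem2* and *Car2* below, are not separate evidence either.

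**Figure D5:**
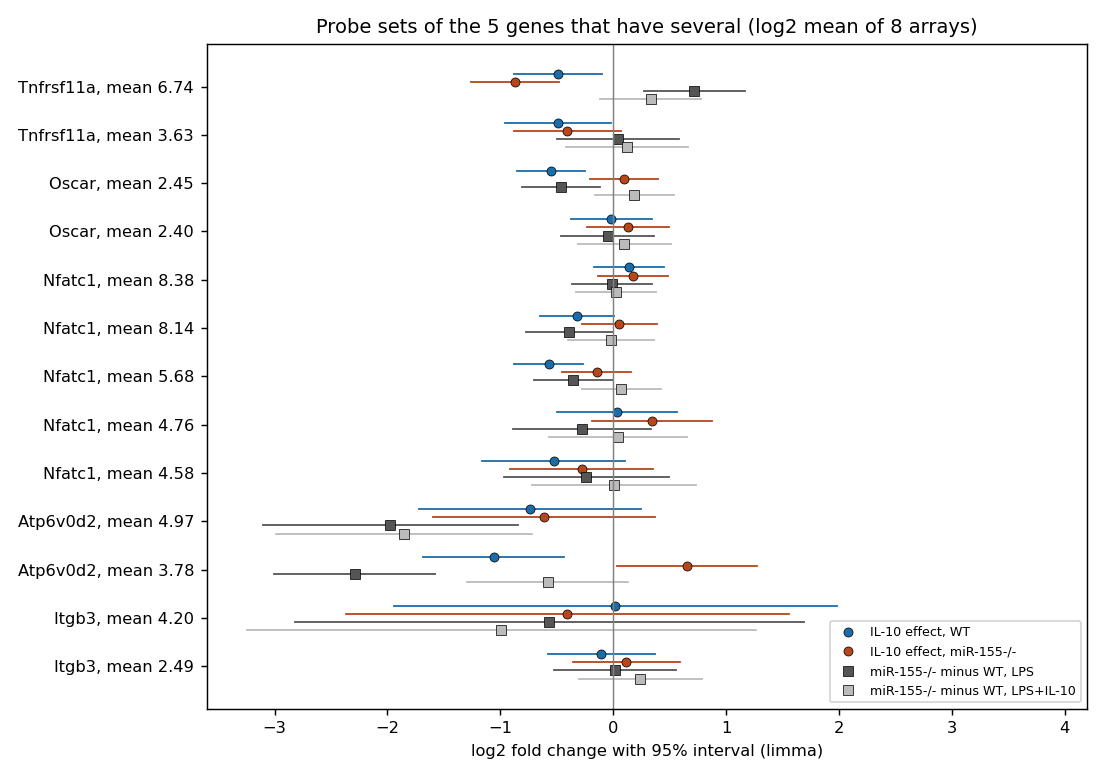
Log2 fold change with its 95% interval (horizontal axis) for each probe set of the 5 genes that have more than 1, with circles for the IL-10 effect in WT (blue) and miR-155-/- (orange) cells and squares for the genotype difference under LPS (dark grey) and LPS + IL-10 (light grey). The 2 probe sets of *Atp6v0d2* share a low miR-155-/-(LPS) level at −1.98 and −2.29 and gave −0.61 and 0.65 for IL-10 in miR-155-/- cells. The probe set at −2.29 had miR-155-/-(LPS) values near background.

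The genes around these 9 were taken from 7 lists of 94 further genes in all, for RANK signalling, osteoclast transcription factors, brakes on osteoclast formation, fusion, resorption, the proton pump and integrin partners. With IL-10 in WT cells 0 of the 94 were called, and 9 (9.57%) had an unadjusted limma p under 0.05, against 9.26% of all genes. In the genotype comparison under LPS 1 was called higher and 3 lower, which is 4.26% against 1.94% of all genes. With IL-10 in miR-155-/- cells 1 was called higher and 4 lower, which is 5.32% against 3.5%. Under LPS + IL-10 the genotypes gave 1 lower call, or 1.06% against 0.0935%. The difference in the IL-10 effect gave 0 calls, with 9 (9.57%) at an unadjusted p under 0.05 against 10.6%. These shares rest on at most 5 genes a comparison and were not tested against the whole. The calls fell on 7 genes. Among signalling genes, *Trem2*, a receptor on macrophages that signals through DAP12 and promotes fusion, read 10.01 and 9.75 for WT donors under LPS, 8.32 on both miR-155-/-(LPS) arrays, and 9.79 and 9.29 once IL-10 was added. It was lower in miR-155-/-(LPS) by a log2 fold change of −1.56 (adjusted p = 0.0188) and rose with IL-10 in miR-155-/- cells by 1.21 (adjusted p = 0.018). *Blnk*, an adaptor of costimulatory signals, fell with IL-10 in miR-155-/- cells by 1.37 (adjusted p = 0.0447), and *Fosl1*, an AP-1 factor, fell by 1.41 (adjusted p = 0.0191).

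The ligand, its decoy and the other receptors and adaptors named were called in no comparison. *Tnfsf11*, which encodes RANKL, read 7.01 and 7.21 on the 2 arrays of WT donor 1 and between 1.62 and 2.04 on the other 6, so it was near the background in every culture but that of the donor with high stromal markers. *Tnfrsf11b*, the decoy receptor for RANKL, lay between 2.86 and 3.23 and differed in no comparison at an unadjusted p under 0.05. *Csf1r*, the receptor for M-CSF, lay between 13.09 and 13.46. The adaptor *Traf6* lay between 6.17 and 6.89, and the DAP12 gene *Tyrobp* between 12.67 and 12.82. Of the transcription factors, *Fos* had a genotype difference under LPS of −0.67 (adjusted p = 0.138) and *Mitf* of 0.25 (adjusted p = 0.551). The repressors *Irf8* and *Bcl6* were called in no comparison, and the difference of *Irf8* with IL-10 in miR-155-/- cells was 0.41 (adjusted p = 0.101).

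In the lists of fusion and resorption, *Cd47*, a surface ligand of fusing macrophages, fell with IL-10 in miR-155-/- cells by 0.67 (adjusted p = 0.0303), and *Cd36*, a scavenger receptor, was lower in miR-155-/-(LPS), at −1.01 (adjusted p = 0.0245). *Car2*, the carbonic anhydrase that supplies protons for resorption, rose in miR-155-/-(LPS) by 1.11 (adjusted p = 0.0195) and fell with IL-10 in miR-155-/- cells by 1.24 (adjusted p = 0.00547). *Mmp9*, a protease of osteoclasts and of other myeloid cells, was lower in miR-155-/- cells, at −3.06 under LPS (adjusted p = 0.00537) and −3.30 under LPS + IL-10 (adjusted p = 0.0132), the same direction as *Ctsk* and *Atp6v0d2*. The median of the 8 neutrophil markers measured ran from 3.91 to 4.18 on WT arrays and from 2.97 to 3.52 on miR-155-/- arrays. Under LPS 3 of the 8 were called lower in miR-155-/- cells (*S100a8*, *S100a9* and *Mmp8*), 6 had a negative and 2 a positive difference, and the median difference was −0.09. *Camp* read 6.30 and 5.82 in miR-155-/-(LPS), above 5.78 and 5.07 in WT(LPS) as a pair, and *Elane*, *Mpo* and *Ngp* read between 1.58 and 3.05 on all arrays. The part of such cells in *Mmp9*, *Ctsk* or *Atp6v0d2* was not tested. Of the other proton pump subunits, 16 were measured and 0 called, with at most 2 at an unadjusted p under 0.05 in any comparison. The genotype difference under LPS was 0.33 for *Tcirg1* (adjusted p = 0.44) and −0.12 for *Atp6v0d1*, the ubiquitous counterpart of the d2 subunit (adjusted p = 0.728). Of the 9 genes measured for partners and ligands of this integrin, 0 were called, with at most 2 at an unadjusted p under 0.05 in any comparison. Among them *Itgav*, the partner chain of beta 3, lay between 11.84 and 12.07.

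For *Dcstamp* and *Ctsk*, the genes with the most similar profile over the 8 arrays were picked by the smallest root mean square difference of centred log2 values, among genes with a mean of at least 5. For *Dcstamp* these were *Serpinb6b* (0.50), *Itgax* (0.62), *Pde2a* (0.64), *H2-Eb1* (0.67) and *Spic* (0.71), out of 9498 genes. For *Ctsk* they were *Cd59a* (0.32), *Dennd2a* (0.33), *Gstm2* (0.46), *Cyp2j6* (0.49) and *Hmga2* (0.49), out of 9497. These profiles are a description over 8 arrays of 4 donors, and the closest of so many candidates will always be close. *Itgax*, the CD11c chain, read 6.31 and 7.28 for WT donors under LPS against 5.31 and 5.75 under LPS + IL-10. The 6 dendritic cell markers, *Itgax* among them, had medians between 2.30 and 2.50 on the arrays.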

How the data were processed

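RNA of 8 BMDM cultures was amplified and labelled by the authors with NuGEN kits and measured on Affymetrix mouse genome arrays. The deposited log2 values were made by the authors with RMA in the affy package, which corrects background, quantile-normalises arrays and summarises probe sets. They also used limma, with no versions given in the sources used. From 45101 probe sets, 64 controls and 29 for *Xist* and Y-linked genes were removed. The fit covered 45008, and 34958 of all had 1 gene symbol in the array annotation. All array columns were assigned, with 0 of no sample. The number of arrays limits the precision.

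Group means were fitted with limma 3.58.1 in R 4.3.3, with the donor as a random block (duplicateCorrelation, consensus 0.24), with Benjamini-Hochberg adjustment across every probe set tested. The methods name the mouse donor as the block, and the replicate number was read as the donor within a genotype. Deviations from group means of a donor's 2 arrays correlated at 0.754 in WT and 0.230 in knockout cells. Probe set values were set beside a background, the range of Y-linked probe sets (9) on the arrays of female donors, whose 75th percentile was 2.11.

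Named genes were the 9 members, the genes of 7 lists called in any comparison (at most 4 a list and comparison), some pathway genes named whatever their values, and the 5 genes most like *Dcstamp* and *Ctsk*. Members and lists were chosen with earlier results of these data known. The fits were also run on simulated data, to check that large planted effects came back with the right sign. That does not test the calls reported here. Alternatives were no block or a fixed block, fewer arrays, a filter at a mean of 6, an intensity trend, other scaling, the mean over probe sets, and each array left out. Figures used matplotlib 3.10.9 under Python 3.11.15.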

Additional observations from a re-analysis of the deposited data

Results flagged for a closer look

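The second probe set of *Atp6v0d2* differed with IL-10 by −0.77 and −1.35 on the log2 scale in the WT donors and by 1.11 and 0.19 in the miR-155-/- donors, so both WT donors were lower and both miR-155-/- donors higher. The IL-10 effect in miR-155-/- cells minus that in WT cells was 1.71 (SE 0.37, 95% interval 0.83 to 2.59), with a limma adjusted p of 0.285, so the difference failed the correction over all probe sets. On the brightest probe set the same difference was 0.12 (adjusted p = 0.962). The miR-155-/-(LPS) values of the second probe set, 2.60 and 2.88, lie at or just above background, so 1.71 is not an exact size. Groups of 2 arrays are too small for a search for single outlying arrays.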

How the results depend on the processing

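The numbers of called members rest on adjusted p-values near 0.05 and on 2 donors a genotype. For IL-10 in WT cells the count of 0 became 1 when probe sets with a mean under 6 were left out, which leaves 3 members to test, and 2 with an intensity trend and robust hyperparameters. For the genotype under LPS the count of 1 became 0 with the replicate number as a fixed block, with the compared arrays alone, with arrays centred on their medians, and without both arrays of WT donor 1. It became 2 with the filter at 6 and with the mean over probe sets. For IL-10 in miR-155-/- cells the count of 1 became 0 with no replicate block, with the replicate number as a fixed replicate block, after a second quantile normalization and with the mean over probe sets, and 2 with the compared arrays alone, with the trend, and without both arrays of WT donor 1. The donor as a fixed block kept it at 1. Leaving out each array in turn changed which members were called in these comparisons. For the genotype under LPS the difference then lay between −1.03 and −1.01 for *Acp5* and between −2.17 and −1.78 for *Atp6v0d2*. For IL-10 in miR-155-/- cells it lay between −0.98 and −0.77 for *Tnfrsf11a* and between −1.77 and −1.27 for *Dcstamp*. Under the selection rule of the methods the counts were 1 for IL-10 in WT cells, 4 for the genotype under LPS and 2 for the genotype under LPS + IL-10. The 17 member differences with an unadjusted p under 0.05 had 285 values under these alternatives. Of these, 0 reversed in sign, 251 kept their side of the threshold, 22 lost and 12 gained it. The 22 that lost it all belong to the 2 calls, since only a call can lose it. These are *Acp5* for the genotype under LPS and *Tnfrsf11a* for IL-10 in miR-155-/- cells. The 0 reversals say little, as a change of block, filter or spread leaves the fold change as it was. Differences with a larger unadjusted p were not counted. Among them, *Atp6v0d2* for IL-10 in miR-155-/- cells ran from −1.40 to 0.17 with 1 array left out. The cause of these shifts was not tested. WT donor 1 had high stromal markers, and its arrays were kept.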
